A study of Mus musculus with 21 samples.

Results

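Oxytocin and vasopressin are short peptide hormones made mainly by hypothalamic neurons, and each is released both into the blood and inside the brain. Their receptors are closely related proteins that cross the membrane of the cell and signal through G proteins. The oxytocin receptor and the vasopressin receptors V1a and V1b couple to Gq, which activates phospholipase C and raises calcium, whereas the V2 receptor raises cAMP and acts in the kidney. In the hippocampus the V1b receptor is known as a marker of the pyramidal neurons of CA2, a small field between CA1 and CA3 that is needed for social memory. The oxytocin receptor is found in CA2, in parts of CA3 and in interneurons.

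The 3 receptor genes studied here, Oxtr (oxytocin receptor), Avpr1a (V1a receptor) and Avpr1b (V1b receptor), were taken by name from the 55487 genes of a hippocampal count table. Of these 55487 genes, 39394 had at least 1 count and 18146 passed a filter on low counts, among them Oxtr and Avpr1b but not Avpr1a. The animals were male C57BL/6 wild-type mice of 10 weeks. Those of the maternal separation group (MS) had been taken from the dam for 4 hours a day from postnatal day 10 to 17 and reared with little nesting material, and those of the standard rearing group (SR) had not. The hippocampi of a mouse gave 1 library of messenger RNA.

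The table held 9 MS and 12 SR libraries. The labels named no nest, but the animal numbers formed 7 sets of 3 consecutive numbers with 1 rearing condition each, here A to C for MS and D to G for SR, and mice are named by set and position (A1 to G3). Sets C and G had much higher numbers than the others. The study assigned whole nests to a rearing group. Whether mice of a set were littermates is not stated in the labels, so that p-values measure the spread among these mice and not among nests. Total counts lay between 17276810 and 30449055. The MS mouse A2 stood apart: the summed level of 5 dentate gyrus markers was 35.1 CPM (counts per 1e+06 counts of the library) in A2 against 218 or more in the other MS mice, and that of 6 striatal markers was 1629 CPM against at most 564. It was left out, which left 8 MS and 12 SR mice. In A2 the 3 receptors had 80 (Oxtr), 3 (Avpr1a) and 1 (Avpr1b) counts.

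The 3 genes lie on different chromosomes of GRCm38. Oxtr is at chr6:112473683-112489943 on the minus strand, Avpr1a at chr10:122448499-122453452 on the plus strand and Avpr1b at chr1:131599239-131612000 on the plus strand. One 60-base stretch of a coding exon in each gene shows how alike they are: capitals mark the 44 bases that are the same in all 3 receptors. The stretches cover bases 253 to 312 of the coding sequence of Oxtr (chr6:112489486-112489545), 289 to 348 of that of Avpr1a (chr10:122449093-122449152) and 238 to 297 of that of Avpr1b (chr1:131599978-131600037).
Oxtr: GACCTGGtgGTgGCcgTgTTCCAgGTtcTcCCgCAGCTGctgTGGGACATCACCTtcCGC
Avpr1a: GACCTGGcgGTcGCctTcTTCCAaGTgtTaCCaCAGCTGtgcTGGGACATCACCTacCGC
Avpr1b: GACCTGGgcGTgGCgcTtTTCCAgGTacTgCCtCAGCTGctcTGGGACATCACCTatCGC

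Over the aligned coding sequences the identity of bases was 59.7% for Oxtr and Avpr1a, 59.0% for Oxtr and Avpr1b, and 57.1% for Avpr1a and Avpr1b. The longest run of bases that a pair shared was 23 bases for Oxtr and Avpr1a. No 31-base word of the Avpr1a transcripts was found in a transcript of another gene, and such words made up 0.778% of those of Oxtr and 0.597% of those of Avpr1b. Reads could therefore be told apart between the receptors over nearly all of their length. Avpr1a is crossed on the other strand by Gm48877, an antisense gene with 5 counts over the 20 mice, whose exons shared 0 bases with those of Avpr1a.

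The genes of the hormones are alike as well. The 27 bases that code for the hormone itself are shown for the oxytocin gene Oxt (chr2:130576267-130576293, plus strand) and the vasopressin gene Avp (chr2:130582446-130582472, minus strand), with the bases that differ in capitals.
Oxt: tgctacAtccagaactgcccCCTGggc
Avp: tgctacTtccagaactgcccAAGAggc

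Oxtr was the most abundant of the 3 receptor mRNAs. Its level over the 20 mice was 8.04 ± 1.81 CPM (SD), from 102 to 232 counts in a library, whereas Avpr1a and Avpr1b had 161 and 286 counts over all 20 mice together. Per kb of exons the levels were 1.68 ± 0.378 CPM per kb for Oxtr, 0.163 ± 0.067 for Avpr1b and 0.145 ± 0.165 for Avpr1a (SD, n = 20). Oxtr exceeded each of the other receptors in 20 of 20 mice, by 10.3-fold (Avpr1b) and 11.6-fold (Avpr1a) in the means. Avpr1a and Avpr1b did not differ beyond their spread, since Avpr1a was the higher one in 10 of 20 mice. Among the genes tested, 33.1% had a lower level per kb than Oxtr, 2.42% a lower level than Avpr1b and 1.87% a lower level than Avpr1a.

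The CA2 markers spanned a wide range on the same scale. Necab2, which codes for a neuronal calcium-binding protein, had 38.2 ± 7.37 CPM per kb and Rgs14, a regulator of G protein signalling that limits plasticity in CA2, 22.6 ± 4.03 (SD, n = 20). Oxtr lay beside the lowest of the 9 markers, Vit (1.67 ± 0.437) and Map3k15 (0.972 ± 0.252). The counts of Map3k15 are uncertain, since 603 of its 4348 exon bases overlap exons of Pdha1 on the other strand and the strand setting of the counting is not given in the sources used here.

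**Figure D1:**
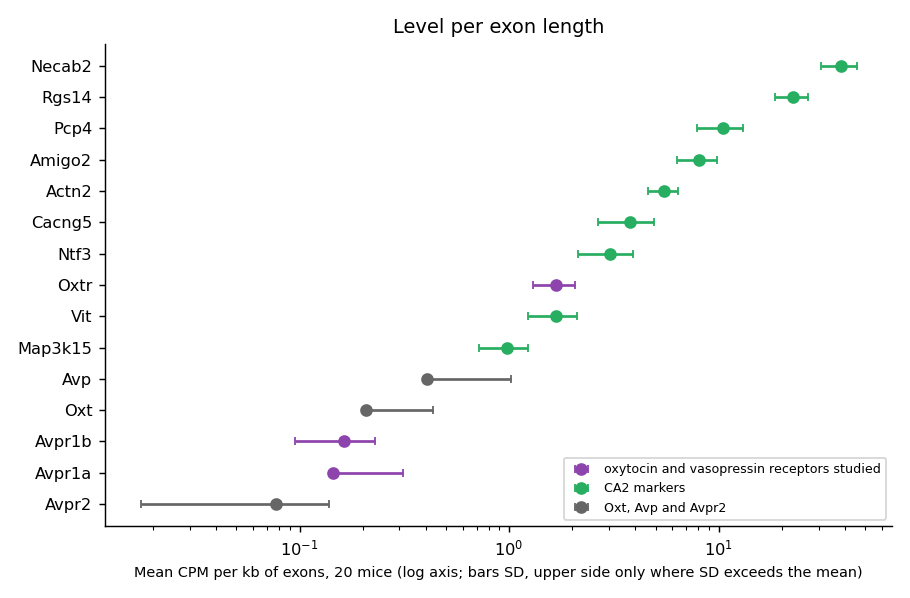
Mean level per exon length (CPM per kb, log axis) over 20 mice of the 3 receptors (purple), the 9 CA2 markers (green) and Oxt, Avp and Avpr2 (grey), with bars for the SD. Oxtr (1.68 CPM per kb) lies among the lowest CA2 markers, and Avpr1a (0.145) and Avpr1b (0.163) lie lowest but for Avpr2 (0.0776).

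Oxtr did not differ between the rearing groups by the test. In the 8 MS mice its level ran from 5.81 to 11.6 CPM with a median of 8.15, and in the 12 SR mice from 4.31 to 10.5 CPM with a median of 8.31. The groups overlapped over most of their range, and the highest mouse (C3) was MS and the lowest (E2) SR. The means were 8.21 ± 1.79 CPM in MS (SD, n = 8) and 7.92 ± 1.90 in SR (SD, n = 12). The log2 fold change of MS against SR was 0.05 (SE 0.148, 95% interval -0.26 to 0.36, edgeR's quasi-likelihood test, adjusted p = 0.931). As the tissue is bulk, fewer cells with a receptor and less mRNA per cell cannot be told apart.

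Avpr1b, the classical CA2 receptor, had few counts in every mouse. They ran from 6 to 22 with a median of 10.5 in MS and from 4 to 28 with a median of 15.5 in SR. The groups overlapped, with the lowest level in E1 (0.170 CPM) and the highest in D3 (1.16 CPM), both SR mice. The means were 0.599 ± 0.278 CPM in MS (SD, n = 8) and 0.694 ± 0.271 in SR (SD, n = 12), and the log2 fold change was -0.20 (SE 0.278, 95% interval -0.78 to 0.37, edgeR, adjusted p = 0.829).

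Avpr1a was at the limit of detection. In MS the counts were 7 and 0 in A1 and A3, 14, 6 and 4 in B1 to B3, and 28, 1 and 30 in C1 to C3. In SR they were 0, 11 and 2 in D1 to D3, 3, 4 and 1 in E1 to E3, 3, 9 and 2 in F1 to F3, and 16, 6 and 14 in G1 to G3. The groups overlapped at low levels, while C3 (1.64 CPM), C1 (1.26 CPM) and B1 (0.792 CPM), all MS, lay above the highest SR mouse (G1, 0.752 CPM), and 2 of the 8 MS mice (C1 and C3) gave 58 of the 90 MS counts. The 2 mice without a count, A3 and D1, may have held up to 3 counts, that is 0.146 and 0.150 CPM.

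The mean of Avpr1a was 0.570 ± 0.604 CPM in MS (SD, n = 8) and 0.265 ± 0.253 CPM in SR (SD, n = 12). The difference of the mean log2 CPM was 0.59 and did not pass the test (two-sided exact permutation test over 125970 splits of the mice, p = 0.300). On the CPM scale the difference was 0.306 CPM (exact permutation test, p = 0.149). Without C3 the log2 difference was 0.31, without C1 0.36 and without set C 0.20.

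None of the 3 receptors was thus called, against a background of 2 genes of 18146 tested, or 0.011%, at an adjusted p under 0.05 with edgeR. At an unadjusted p under 0.05 the background was 2095 genes, or 11.5%, and neither Oxtr (p = 0.733) nor Avpr1b (p = 0.472) was among them. DESeq2 called 134 of 13871 genes with an adjusted p (0.966%), and Oxtr was not called there (adjusted p = 0.923) while Avpr1a and Avpr1b received no adjusted p. The median log2 fold change of all genes tested was 0.00084.

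**Figure D2:**
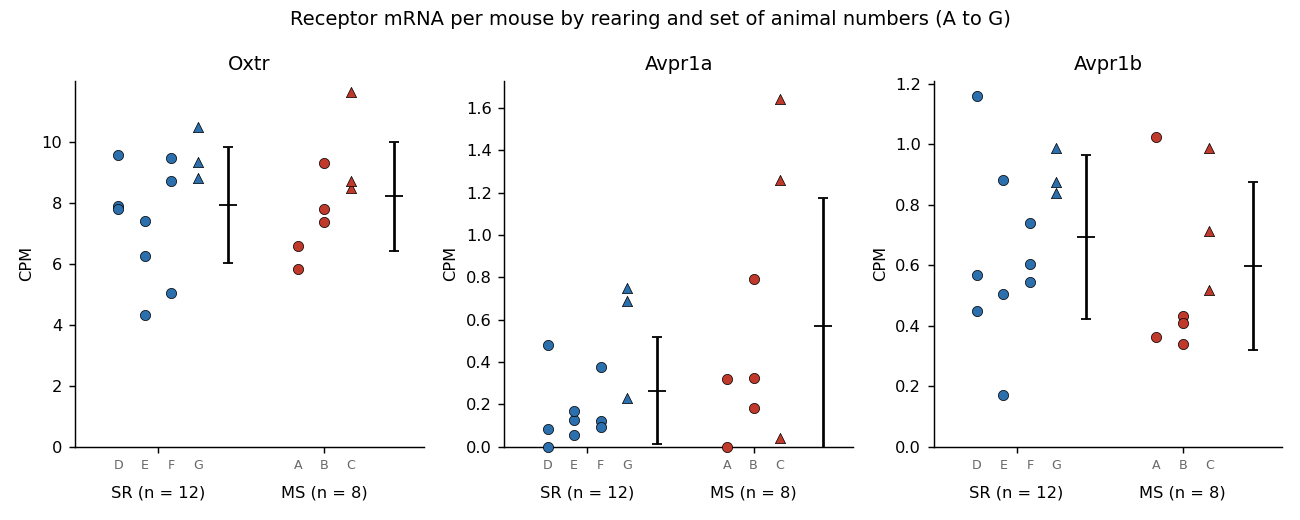
CPM of Oxtr, Avpr1a and Avpr1b in each mouse, with SR in blue and MS in red, columns of points for the sets of animal numbers, triangles for the high and circles for the low range of numbers, and black bars for the mean and SD (the lower bar of Avpr1a in MS ends at 0). MS and SR overlap in each panel, and sets C and G hold many of the highest points, with means of 9.61 and 9.54 CPM for Oxtr.

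The spread among mice was larger than counting error for each receptor. The coefficient of variation of Oxtr was 21.8% in MS and 24.0% in SR, where counting error alone would give 7.77% and 7.53%. For Avpr1a it was 106% and 95.7%, against 30.0% and 41.3% from counting. Avpr1b came closest to counting error, with 46.4% and 39.1% against 28.6% and 25.5%.

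The receptors were also compared by animal number. Mean Oxtr was 6.20, 8.16 and 9.61 CPM in the MS sets A, B and C, and 8.42, 5.98, 7.74 and 9.54 CPM in the SR sets D to G. In both rearing groups the set of high numbers was thus the highest one. Over both groups the mean was 9.57 ± 1.23 CPM in the high range (SD, n = 6) and 7.38 ± 1.63 in the low range (SD, n = 14). With the rearing group in the model the log2 difference of high against low was 0.38 (SE 0.136, edgeR, unadjusted p = 0.0116, adjusted p = 0.215), which did not pass over all genes, of which 51 (0.281%) did.

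Avpr1a and Avpr1b were also highest in C among the MS sets and in G among the SR sets. Avpr1a averaged 0.982 and 0.557 CPM in sets C and G, against 0.117 to 0.433 in the other 5 sets. Avpr1b averaged 0.820 ± 0.180 CPM in the high range (SD, n = 6) and 0.585 ± 0.277 in the low range (SD, n = 14), a log2 difference of 0.52 (SE 0.272, edgeR, adjusted p = 0.370). This comparison was made after the values of the sets had been seen.

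The difference between MS and SR was also computed within the ranges. For Oxtr the log2 fold change was -0.003 in the low range (5 MS, 9 SR) and 0.01 in the high range (3 MS, 3 SR), and with the range as a term of the model it was 0.0007. For Avpr1b it was -0.27 and -0.28. For Avpr1a the difference of log2 CPM was 0.55 (exact permutation test, p = 0.325) and 0.19 (p = 1, where 3 mice against 3 cannot give a p under 0.10). A test of the difference between the ranges gave adjusted p values of 0.996 and 0.997 for Oxtr and Avpr1b (edgeR, interaction term). Avpr1a was added to this fit although it had failed the filter, and the fitted log2 fold changes of MS against SR differed by -0.03 between the ranges (SE 0.780, edgeR, adjusted p = 0.996), a scale on which counts are modelled and which is not that of the mean log2 CPM above.

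The CA2 markers were compared between the groups in the same fit. All 9 CA2 markers were tested and 0 were called by edgeR or by DESeq2, with 0 at an unadjusted p under 0.05. Their log2 fold changes ran from -0.19 (Ntf3, a neurotrophin) to 0.17 (Vit), with a median of 0.06 and 0.04 for Actn2, an actin-binding protein. The CA2 score, the mean log2 CPM of the 9 markers, was 4.01 ± 0.225 in MS (SD, n = 8) and 3.97 ± 0.184 in SR (SD, n = 12), a difference of 0.04 (exact permutation test, p = 0.706). The lowest scores were those of 2 mice, E2 with 3.49 and A1 with 3.62. The highest were those of B1 with 4.29 and C3 with 4.28.

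The relation of each receptor to the CA2 score was examined over the 20 mice after the mean of each rearing group had been removed. In all, 15 relations (3 receptors and 5 hippocampal scores) were tested by 100000 permutations within the rearing groups. For Oxtr and CA2, r was 0.54 (permutation p = 0.0158, adjusted p = 0.0593) and rho 0.35 (permutation p = 0.135, adjusted p = 0.290). Without the 2 mice farthest from the median score, A1 and E2, r was 0.097, so that r over the 20 mice depended largely on these 2. Both had low Oxtr, at 5.81 and 4.31 CPM. Within the low range of animal numbers r was 0.40 (n = 14). In the high range, which holds neither A1 nor E2, r was 0.57 (n = 6). With the mean of each set removed r was 0.21 (permutation p = 0.509).

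The vasopressin receptors were not related to the CA2 score beyond the threshold either. For Avpr1b r was 0.42 (permutation p = 0.0714, adjusted p = 0.134) and rho 0.42 (adjusted p = 0.249), and r was 0.39 without A1 and E2. Within the low and the high range r was 0.26 and 0.58. For Avpr1a r was 0.35 (permutation p = 0.163, adjusted p = 0.222) and rho 0.37 (adjusted p = 0.290), with r of 0.51 without the same mice. In the low range it was -0.01 and in the high range 0.88.

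Striatal markers were high in a pair of mice. B1 (MS) and E2 (SR) had the highest striatal scores, at 6.09 and 5.39 against means of 3.48 in MS and 3.31 in SR. With both left out, an alternative chosen after seeing the data, r of Avpr1b and CA2 was 0.63 (permutation p = 0.00241) and rho 0.72, whereas r of Oxtr and CA2 was 0.36 (permutation p = 0.161). Without B1 alone r of Avpr1b and CA2 was 0.57. The part of striatal RNA in these relations was not tested.

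The single CA2 markers behaved unevenly. Oxtr had a positive r with 7 of the 9, with a median of 0.41: the highest were Necab2 (r = 0.74), Vit (0.66) and Amigo2 (0.61), a cell adhesion protein widely used to mark CA2. The lowest was Pcp4 (r = -0.50), a calmodulin-binding protein. The counts of Pcp4 are uncertain, since 243 of its 1026 exon bases overlap exons of Igsf5, a gene with 1 count over the 20 mice. Pcp4 was highest in E2 (17.9 CPM) and B1 (17.2 CPM), the mice with the highest striatal scores, and the part of this in its r was not tested. Necab2 (125 CPM) and Actn2 (30.9 CPM) were also highest in B1, while in E2 they were at 51.4 and 20.5 CPM. In A2, which was left out, the CA2 markers summed to 276 CPM, within the 193 to 324 CPM of the other MS mice. The part of striatal RNA in the CA2 score was not tested. Avpr1b also had a positive r with 7 of 9, with a median of 0.30, up to 0.50 for Amigo2 and 0.49 for Rgs14, and again a negative one with Pcp4 (-0.41). For Avpr1a the median was 0.14, and the single r above 0.5 was with Cacng5 (0.65), a subunit of AMPA receptor complexes.

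Among the other hippocampal scores, Avpr1b was related to CA3. Its r with the CA3 score, from 5 CA3 markers, was 0.63 (permutation p = 0.00532, adjusted p = 0.0399) and rho was 0.70 (adjusted p = 0.0147). Without A1 and E2 r was 0.68, and within the low and the high range of animal numbers it was 0.56 and 0.49. Leaving out 1 mouse at a time gave r between 0.59 and 0.69. Removing the mean of each set gave r = 0.56, which did not pass the threshold when values were permuted within sets (p = 0.184). All 5 CA3 markers had a positive r with Avpr1b, from 0.41 (Cpne4) to 0.78 (Bok, a member of the BCL2 family).

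For Avpr1b and the dentate gyrus score, from 5 markers, r was 0.57 (permutation p = 0.0109, adjusted p = 0.0543) and rho 0.67 (adjusted p = 0.0147), so that the rank correlation passed after adjustment and Pearson's r did not. All 5 dentate markers had a positive r, between 0.49 and 0.59. Within the low range r was 0.52 and within the high range -0.18, and with the mean of each set removed it was 0.49 (permutation p = 0.193). For Oxtr the r values were 0.46 with CA3 (adjusted p = 0.115) and 0.33 with the dentate gyrus (adjusted p = 0.222). They were 0.017 and -0.10 without A1 and E2. The CA3 and dentate scores shared their extreme mice. E2 was lowest in both (4.39 for CA3 and 5.27 for dentate), A1 was next lowest in both, and F3 was highest in both. Whether a receptor was related to either score apart from the other was not tested.

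Avpr1a was related inversely to the CA1 score by Pearson's r. Its r was -0.66 (permutation p = 0.00253, adjusted p = 0.0379) and rho -0.55 (permutation p = 0.0154, adjusted p = 0.0768). Pearson's r thus passed after adjustment and the rank correlation did not. Without the 2 mice farthest from the median, C3 and D1, r was -0.50, and r was -0.40 within the low and -0.92 within the high range. With the mean of each set removed it was -0.64 (permutation p = 0.0262), but over all 21 libraries it was -0.21 (permutation p = 0.476). Given the 161 counts of Avpr1a in all, this relation has a low precision. Each of the 5 CA1 markers had a negative r with Avpr1a, from -0.46 (Wfs1, a protein of the endoplasmic reticulum) to -0.13 (Pou3f1) and -0.018 (Fibcd1), so that the last is close to 0.

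**Figure D3:**
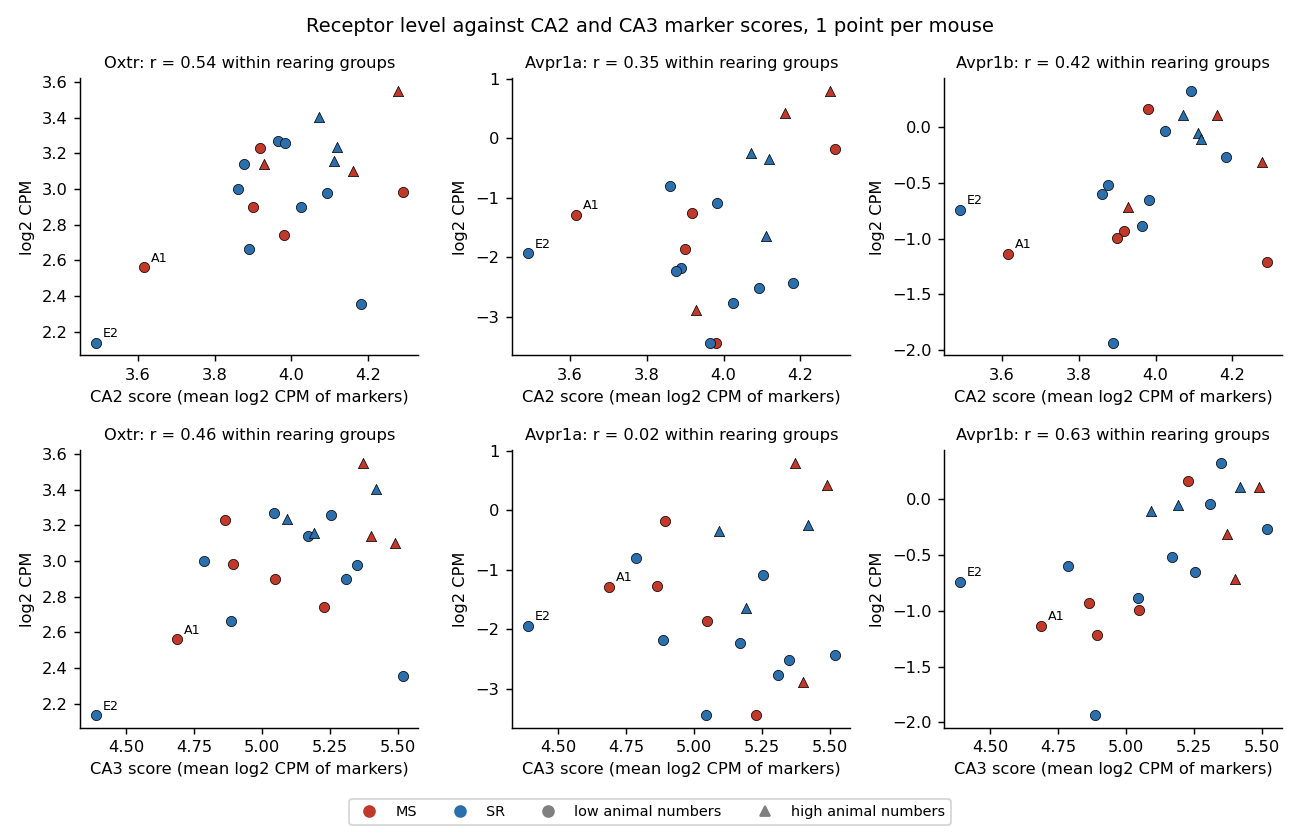
Receptor level (log2 CPM) of each mouse against its CA2 score (top) and CA3 score (bottom), both the mean log2 CPM of the markers, with MS in red, SR in blue and triangles for the high range of animal numbers. In the top left panel r of Oxtr with CA2 is 0.54 with A1 and E2 and 0.097 without them. The bottom right panel shows Avpr1b against CA3 (r = 0.63).

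The interneuron score, from 8 markers, was not related to a receptor after adjustment of Pearson's r or rho: r was -0.45 for Oxtr, 0.054 for Avpr1a and -0.46 for Avpr1b, with adjusted p values of 0.115, 0.887 and 0.115. The markers fell apart for Avpr1a. Gad1, Gad2 and Slc32a1, which all GABA neurons use to make and load GABA, had r of 0.64, 0.59 and 0.62 with Avpr1a, whereas 4 of the 5 markers of subclasses had a negative r, down to -0.44 for Npy. These 3 genes are also expressed in the striatum. The 6 striatal markers had r between 0.066 and 0.38 with Avpr1a, and the striatal score had r = 0.20. The part of striatal RNA in these values was not tested. In a family of 12 further relations with scores of striatum, choroid plexus, thalamus and endothelium, added after the data had been seen, 0 passed the adjusted threshold. Their largest r was -0.47 (Avpr1b and striatum, adjusted p = 0.405, rho = -0.56 with adjusted p = 0.147). Without B1 and E2, the mice farthest from the median striatal score, r of Avpr1b and striatum was -0.73. All 6 striatal markers had a negative r with Avpr1b over the 20 mice, from -0.59 to -0.25.

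**Figure D4:**
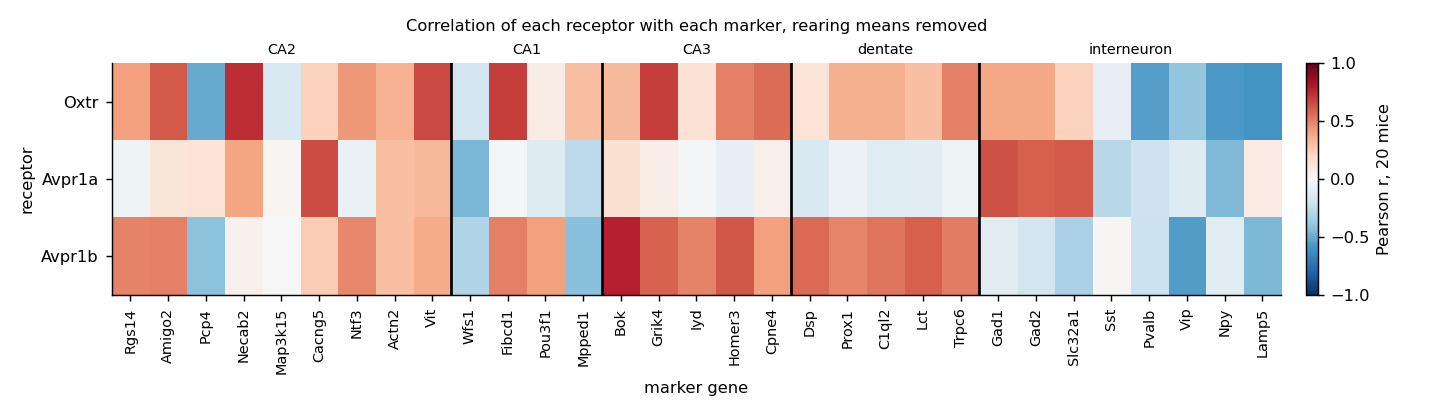
Pearson r over 20 mice of each receptor (lines) with each hippocampal marker gene (columns, grouped by list, with 1 CA1 marker not shown), with rearing means removed, from blue (-1) to red (1). The CA3 and dentate blocks of Avpr1b are red throughout (0.41 to 0.78), and Oxtr ranges from -0.50 (Pcp4) to 0.74 (Necab2) within the CA2 block.

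Among themselves the receptors were weakly correlated over the 20 mice, with r of 0.40 for Oxtr and Avpr1a, 0.27 for Oxtr and Avpr1b and 0.11 for Avpr1a and Avpr1b. The genes most like each receptor were sought among the genes tested, which is a choice of the highest of 18145 values and no test. For Oxtr they were Samd14 (r = 0.94), Hap1 (0.91), which binds huntingtin, and Crtac1 (0.89). For Avpr1a they were Sox1 (r = 0.88), a transcription factor of the SOX family, Ano2 (0.87), a calcium-activated chloride channel, and Grk5 (0.84), a kinase that desensitises G protein-coupled receptors. For Avpr1b they were Scin (r = 0.86), an actin-severing protein, Mex3b (0.82), an RNA-binding protein, and Mmachc (0.79), which processes vitamin B12. None of these 9 genes is on the CA2 list.

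The ligands were hardly present as mRNA. Oxt had 26 counts in the 8 MS and 21 in the 12 SR mice, from 0 to 9 in a mouse, and Avp had 60 and 41. The groups overlapped for both. Of the 31-base words of Oxt and Avp, 21.9% and 17.7% were also found in other genes, and whether reads were lost there was not tested. The mean level of Oxt was 0.162 ± 0.159 CPM in MS (SD, n = 8) and 0.0777 ± 0.0782 in SR (SD, n = 12), and the log2 CPM did not differ by the test (exact permutation test, p = 0.191). For Avp the means were 0.360 ± 0.553 and 0.150 ± 0.0598 CPM (exact permutation test, p = 0.774), with 35 of the 60 MS counts in C1. Avpr2, the V2 receptor, had 50 and 48 counts (exact permutation test, p = 0.142).

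The genes that make up the signalling route from the receptors were given by a list of 17, of which 14 were tested and Oxt, Avp and Avpr2 were too low. Of the 14, 0 were called by edgeR (smallest adjusted p = 0.355) or DESeq2 (smallest adjusted p = 0.265). The log2 fold changes were above 0 in 6 and below 0 in 8, with a median of -0.0061, and 2 had an unadjusted p under 0.05, that is 14.3% of the list against 11.5% of all genes tested, a share near the background. These were Plcb1, a phospholipase C that Gq activates (log2 fold change -0.10, SE 0.0436), and Prkcb, a protein kinase C (-0.08, SE 0.0392). The values of the G proteins themselves were -0.07 for Gnaq and -0.02 for Gna11, and those of the phospholipases Plcb3 and Plcb4 were 0.10 and 0.07.

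Downstream of these enzymes, Itpr1, the receptor through which calcium leaves the endoplasmic reticulum, had a log2 fold change of -0.01, and the kinase Prkca had -0.09. Of the genes that switch receptors off, Grk5 had 0.21 (SE 0.148), Grk2 0.0046, Arrb1 -0.0039 and Arrb2 0.05. Lnpep, the peptidase that cleaves oxytocin, had -0.04, and Cd38, an enzyme needed for oxytocin release, had 0.02. Of the 14 genes, Grk5 had the highest value and Plcb1 the lowest, and neither passed the test (adjusted p = 0.620 and 0.355, edgeR).

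**Figure D5:**
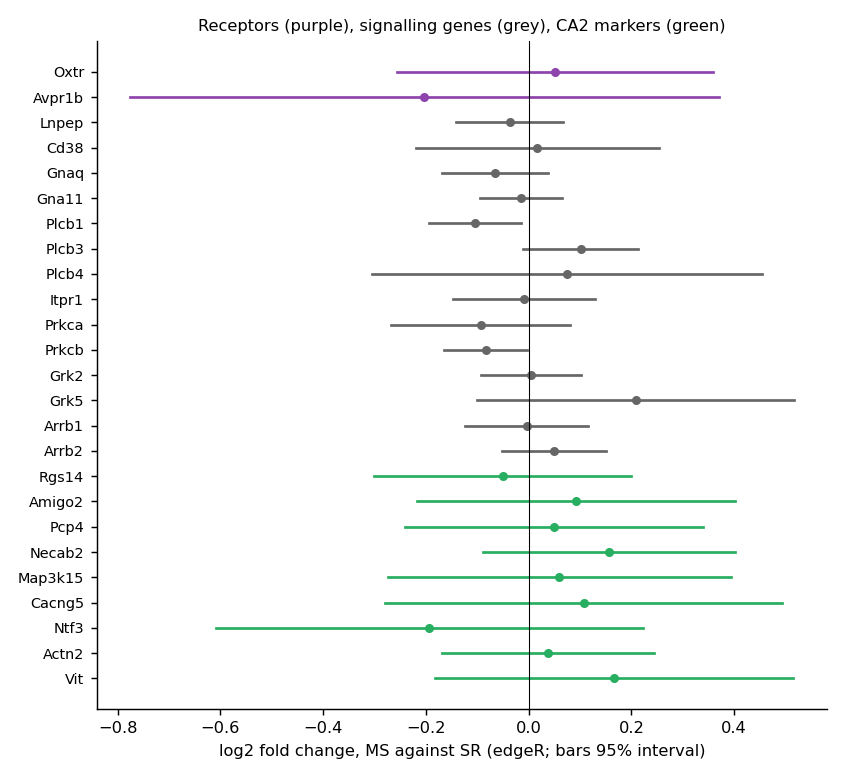
Log2 fold change of MS against SR with its 95% interval (edgeR) for the 2 receptors tested (purple), the 14 signalling genes tested (grey) and the 9 CA2 markers (green). The intervals of Oxtr (-0.26 to 0.36) and Avpr1b (-0.78 to 0.37) span 0, and that of Avpr1b is the widest one shown.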

How the data were processed

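Hippocampal poly-A RNA of 21 mice was sequenced (NEBNext Ultra II Directional kit). The authors aligned reads with STAR 2.7.3a to GRCm38 and deposited raw gene counts from featureCounts, with neither normalization nor filter. Columns of no sample numbered 0.

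Groups came from the rearing label. Counts were scaled by TMM, filtered (filterByExpr, minimum count 10: at least 0.459 CPM in 8 libraries) and tested with the quasi-likelihood test of edgeR 4.0.16 (R 4.3.3), adjusted by Benjamini-Hochberg at 0.05. CPM uses the TMM-scaled total, and log2 CPM a prior count of 2. Genes that failed the filter had a two-sided exact permutation test. Relations used log2 CPM with rearing means removed. DESeq2 1.42.0 and limma 3.58.1 (voom) were alternatives. The fit and the correlation test were first tested on simulated data. Exon lengths, positions and sequences are from GENCODE M21, and the symbols of 346 gene IDs were missing.

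Named were the 3 receptors, all genes of the signalling and CA2 lists, and the 3 genes most correlated with each receptor. Other markers named, and the sets and ranges of animal numbers compared, were chosen after their values were seen. The receptors, the lists and the removal of A2 were chosen with earlier results of these data known. A further signalling gene is not reported here and is left out of the list and its counts. Counting intervals and limits cover counting error only.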

Additional observations from a re-analysis of the deposited data

Results flagged for a closer look

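In each of 29 genes (the receptors, the signalling list and the CA2 markers) the highest and the lowest of the 8 MS mice were compared with the next mouse, and a gap above 0.526 of the whole range was noted. Chance gives about 1 such gap in 20 groups, and the 12 SR mice were too many for the rule. It was met 3 times. Avp was high in C1, at 1.57 CPM against 0.735 CPM in the next mouse, a gap of 0.532 of the range. Avpr2 was high in the same mouse, at 0.809 against 0.378 CPM, a gap of 0.616. Pcp4 was high in B1, at 17.2 against 11.8 CPM, a gap of 0.603, and B1 also had the highest striatal score. The 3 receptors studied did not meet the rule in MS.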

How the results depend on the processing

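No paired analysis was possible because the labels do not pair MS mice with SR mice. The number of genes called, 2 with edgeR, was 1 with all 21 libraries, 134 with DESeq2, 1 without a filter, 0 with counts summed within sets (1753 genes at an unadjusted p under 0.05), 230 within the low range of animal numbers, 0 within the high range (810 at an unadjusted p under 0.05) and 0 with B1 and E2 left out (2014 at an unadjusted p under 0.05). Leaving out 1 mouse or set gave 0 to 340, with 340 without set C and 109 without C2 or C3. No receptor passed the threshold in any of these fits. The log2 fold change of Oxtr was -0.067 with all 21 libraries and -0.0030 in the low range, and -0.11 to 0.16 when a mouse or set was left out, being below 0 without C3, E2, set C or set E. That of Avpr1b was -0.42 to 0.053, being above 0 without set B. The difference of Avpr1a in mean log2 CPM was 0.20 to 0.98 with a mouse or set left out. The values of the other settings ran from 0.19 to 1.10 and are not all on that scale. The highest was the log2 fold change fitted by DESeq2 (1.10, unadjusted p = 0.0853). That of edgeR without a filter was 1.06 (unadjusted p = 0.123). With at least 10 counts in every library, Avpr1a and Avpr1b gave no value.

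At an unadjusted permutation p under 0.05, r of Oxtr and CA2 lost its call with set means removed (0.21) and with B1 and E2 left out (0.36), and was 0.31 to 0.73 with 1 mouse left out (0.46 without A1, 0.31 without E2). Avpr1a and CA2 passed on the CPM scale (r = 0.50, p = 0.0422), had r = 0.064 (p = 0.820) with set means removed, and was 0.25 to 0.41 with 1 mouse left out. Avpr1b and CA2 passed with all 21 libraries (0.56), without Pcp4 and Necab2 in the score (0.51) and with B1 and E2 left out (0.63), and was 0.37 to 0.57 with 1 mouse left out. The cause was not tested. Avpr1a and Avpr1b had 161 and 286 counts over 20 mice. Their counting error in MS was 30.0% and 28.6%, against 7.77% for Oxtr.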
